A study of Mus musculus with 9 samples.

Results

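The transcription factors described here were the AP-1 and early-response genes Jun, Junb, Jund, Fosb, Fosl1, Batf, Atf3, Egr1, Egr2 and Egr3, chosen by name, which made up 10 of the 23282 gene rows measured in RAW264.7 cells. AP-1 is a dimer of proteins that share a basic leucine zipper, a helix through which they pair and grip DNA. A Jun protein (Jun, Junb, Jund) pairs with a Fos protein (Fos, Fosb, Fosl1, Fosl2) or with a relative such as Batf or Atf3, and the pair chosen sets which sites are bound. The EGR proteins bind GC-rich sites through zinc fingers and are held back by the corepressors Nab1 and Nab2. Most of these genes are switched on within minutes of a stimulus through MAP kinases and serum response factor, whose DNA site is called the CArG box. In the osteoclast lineage AP-1 acts with Nfatc1 downstream of RANKL, the cytokine that drives macrophages to become osteoclasts, while Egr1 and Egr2 are known from the macrophage branch.

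RAW264.7 is a mouse macrophage line, labelled as BALB/c and passage 30, and all libraries came from this 1 line. The 3 libraries of each of 3 groups were cells treated with RANKL alone at 50 ng/mL, cells given RANKL at 50 ng/mL with 10 µg/mL of surface proteins of the bacterium Propionibacterium freudenreichii MJ2, and cells given 10000000 heat-killed MJ2 per mL. Treatment lasted 4 days, so the levels are those of long-treated cells and not of the first hour after a stimulus. Whether the heat-killed MJ2 cells also received RANKL is not given for each library in the labels, so RANKL may itself differ between those cells and the other groups. There was no group of untreated cells, so a rise or fall is relative to the group named and not to resting cells. Nothing in them says that the 3 libraries of a group came from separate cultures, and the p-values measure only the spread between these libraries, which may be technical.

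Values are given on the deposited log2 scale, or as adjusted reads, which are 2 to the deposited value minus 1. The libraries summed to between 5930926 and 6503682 adjusted reads, and a count of 0 in a library allows up to 3 reads there, a floor that covers counting error only. The kit counts the 3′ end of each mRNA once, so levels of different genes can be set side by side without correcting for length. A gene passed the test when the limma adjusted p was under 0.05 and the groups differed 2-fold or more, and fold changes are on the log2(value + 1) scale. In 3 libraries (RANKL alone replicate 2, heat-killed MJ2 replicate 1, surface proteins replicate 3) all 15503 rows that were above 0 anywhere held a value above 0, against 12407 to 13207 rows in the others, and values that move by over 1.5 times without one of them are given both ways. Macrophage markers summed to 19230 to 20490 adjusted reads with RANKL alone, 26220 to 27040 with heat-killed MJ2 and 22380 to 24180 with surface proteins. Osteoclast markers summed to 20910 to 33120, 13870 to 16030 and 5262 to 7864, in the same order. Both lists were well expressed in every group, with Mertk of the macrophage list at or under the floor in all 3 groups and Calcr of the osteoclast list with heat-killed MJ2. T cell, B cell, epithelial and fibroblast markers summed to at most 42.88 in any library. In these bulk samples fewer cells of a type and less RNA per cell cannot be told apart, and the part of the macrophage and osteoclast shift in the results for the 10 genes was not tested.

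The promoters of Jun and Atf3, which differed between groups, are shown because each holds a close relative of the cyclic AMP response element, a site that Jun and ATF proteins bind. Each line is the 60 bases before the RefSeq start on GRCm38, 5′ to 3′ on the gene's strand, with the site in capitals.
Jun, chr4:95052223-95052282, minus strand: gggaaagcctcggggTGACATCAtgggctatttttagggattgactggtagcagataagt
Atf3, chr1:191183334-191183393, minus strand: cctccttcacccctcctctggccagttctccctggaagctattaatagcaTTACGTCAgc

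The site lay 45 to 38 bases before the start of Jun and 10 to 3 bases before that start of Atf3. Read on both strands as TGACNTCA or TNACGTCA, it was found in 9.92% of 32851 promoter windows of 300 bases, and the exact element TGACGTCA, which it includes, in 1.79%. By GENCODE M21, the Jun stretch lies upstream of the gene, in an intron of the antisense RNA Junos, and the Atf3 stretch lies in an intron of a longer Atf3 transcript, with its last bases and part of the site in the first exon of another. Neither window held the AP-1 site TGACTCA or its complement TGAGTCA, which 5.20% of the windows hold. For Egr2 a stretch with a CArG box, in capitals, is shown, because Egr2 is the member that passed as lower in both treated groups.
Egr2, chr10:67537787-67537816, plus strand: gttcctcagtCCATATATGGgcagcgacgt

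The Egr2 stretch lies in introns of longer Egr2 transcripts. A CArG box stood in 1.63% of all windows, and this one in 3 of the 5 Egr2 windows, 72 to 63 bases before the start of the third. The second Egr2 window held another CArG box, CCTTTTTTGG, and the first held overlapping NF-kB matches, as the Fosb window held 1 NF-kB match. The windows of Junb, Jund and Batf held none of the motifs searched, which also were the EGR site GCGTGGGCG (0.612% of windows), the ETS site CCGGAAGT (3.89%) and the NF-kB site (8.46%). The Jund window rests on a RefSeq start upstream of the gene position given below, which begins at chr8:70698949. Its bases before the start were chr8:70697489-70697738, so the sequence next to the later start was not searched. A match is a description of letters and says nothing about binding in these cells.

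**Figure D1:**
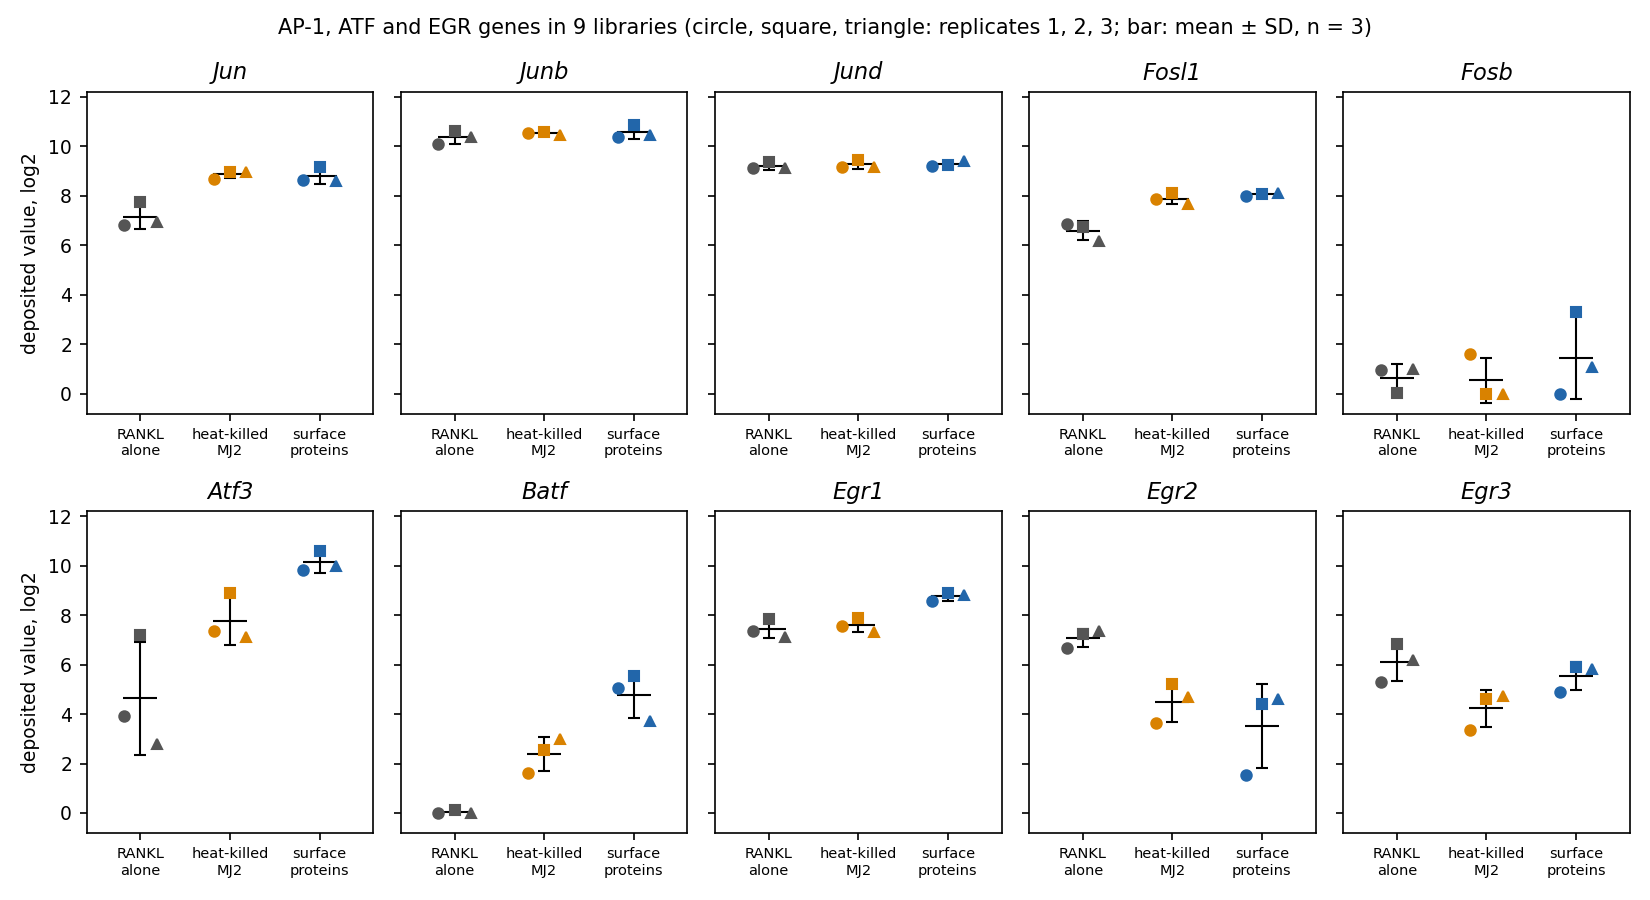
Deposited log2 value of each of the 10 genes (y axis) in the 3 groups (x axis), with 1 point per library and the mean ± SD of 3 libraries. Jun, Fosl1, Atf3, Batf and Egr1 lie higher with surface proteins than with RANKL alone in every library, Egr2 lies lower, and Junb and Jund overlap between all groups.

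In cells treated with surface proteins, Jun, Fosl1, Atf3 and Egr1 rose compared with RANKL alone and Egr2 fell, that is 4 and 1 of 8 tested genes. Of the 10874 genes tested in this comparison, 17.5% passed in either direction, 10.2% as higher and 7.32% as lower. The libraries did not overlap between the groups for 5 of the 8 genes, and for 48.4% of all genes tested. With heat-killed MJ2, 2 of the 8 rose (Jun, Fosl1) and 1 fell (Egr2), against 4.26% of 10814 genes that passed, 3.37% higher and 0.897% lower. Groups did not overlap for 4 of the 8 genes, against 30.2% of all. Between the treated groups 2 of the 8 were higher with surface proteins (Atf3, Egr1) and limma called 0 lower (0 also at an unadjusted p under 0.05), against 10.1% of 10916 genes that passed, 5.08% higher and 4.97% lower, and 3 of the 8 did not overlap, against 42.3%. An exact two-sided permutation test of 3 against 3 libraries cannot give a p below 0.1, and each of these 10 calls had that p. Fosb did not reach the filter of 10 adjusted reads in 3 libraries. Batf reached it only through the surface protein libraries, where it is high, so it had to differ and is described by its values outside these counts. The shares over all genes tested keep genes of that kind, so counts and shares do not follow the same rule.

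**Figure D2:**
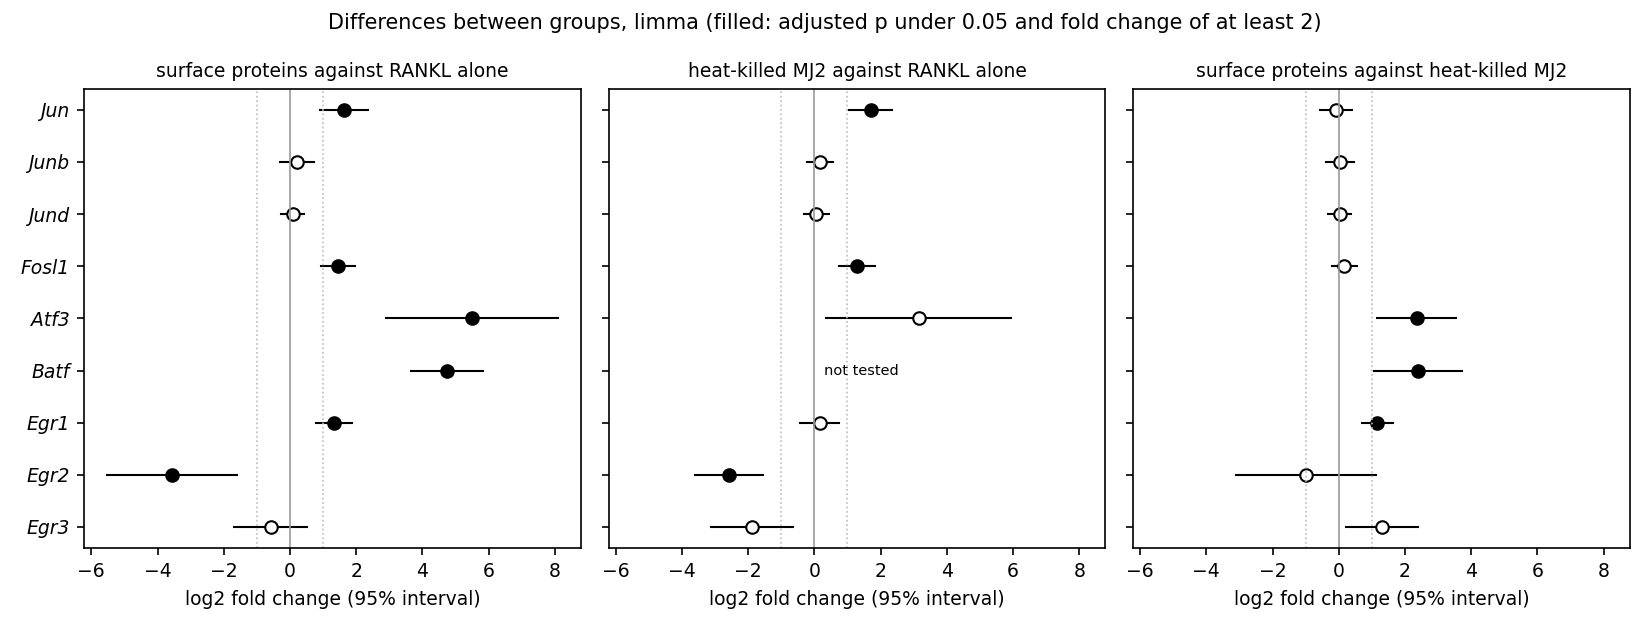
Log2 fold change (x axis) with its 95% interval for 9 genes (y axis) in each of 3 comparisons of 3 against 3 libraries, Batf not being tested for heat-killed MJ2 against RANKL alone, filled where the gene passed. Jun and Fosl1 sit above 0 in both comparisons with RANKL alone and near 0 between the treated groups, whereas Atf3, Batf (which reached the filter only through its high group) and Egr1 are higher with surface proteins in that last comparison as well.

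Within the Jun family, Jun, the founding AP-1 protein (GRCm38 chr4:95049034-95052222, minus strand), was the only one to pass. Jun stood at 6.81, 7.74 and 6.94 log2 in the RANKL alone replicates 1, 2 and 3, at 8.70, 8.96 and 8.96 with heat-killed MJ2, and at 8.65, 9.17 and 8.59 with surface proteins. Both treated groups lay entirely above RANKL alone and overlapped each other. The log2 fold change was 1.64 (SE 0.299, limma adjusted p = 0.0107) with surface proteins, a 3.11-fold rise, and 1.71 (SE 0.267, adjusted p = 0.0229) with heat-killed MJ2. The difference between the treated groups was -0.07 with a 95% interval from -0.56 to 0.41. With surface proteins Jun passed when any 1 library was left out, but with heat-killed MJ2 it passed in 1 of 6 fits without a library, the fit without RANKL alone replicate 2 (adjusted p = 0.0065), and in the other 5 the adjusted p lay between 0.0591 and 0.0821 with a log2 fold change of at least 1.53.

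Junb, which can restrain Jun (chr8:84974484-84978718, minus strand), had the highest mean of the 10 genes in every group. Its log2 values were 10.10, 10.61 and 10.38 with RANKL alone, 10.56, 10.58 and 10.46 with heat-killed MJ2, and 10.39, 10.88 and 10.46 with surface proteins. Jund, a broadly expressed Jun protein (chr8:70698949-70700616, plus strand), lay between 9.12 and 9.47 log2 in all 9 libraries. Neither passed in any comparison and the groups overlapped. The 95% interval of the log2 difference between surface proteins and RANKL alone was -0.29 to 0.72 for Junb and -0.27 to 0.44 for Jund, so a difference of 2-fold or more lay outside it. Within a library, Jun minus Jund was -2.05 ± 0.357 log2 units with RANKL alone (SD, n = 3), -0.40 ± 0.149 with heat-killed MJ2 and -0.50 ± 0.366 with surface proteins.

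Fosl1, which encodes the Fos protein Fra-1 (chr19:5447547-5455946, plus strand), rose to a like level in both treated groups. It held 115, 107 and 71.2 adjusted reads with RANKL alone, 233, 273 and 204 with heat-killed MJ2, and 252, 268 and 276 with surface proteins. The treated groups lay above RANKL alone and overlapped each other, with a difference of 0.17 between them (95% interval -0.20 to 0.55). The log2 fold change was 1.46 (SE 0.212, limma adjusted p = 0.00506) with surface proteins, and this call was kept when any 1 library was left out. With heat-killed MJ2 it was 1.29 (SE 0.227, adjusted p = 0.0307), and in all 6 fits that left out a library the adjusted p lay above the threshold, between 0.0528 and 0.102. The 3′ end of Fosl1 overlaps that of Ccdc85b on the opposite strand in GENCODE M21, and whether reads were counted by strand is not given in the sources used here, so reads of the pair cannot be told apart there. Ccdc85b, named after its values were seen, was higher in the same comparisons, by 1.11 with surface proteins (limma adjusted p = 0.0132) and by 1.00 with heat-killed MJ2 (adjusted p = 0.0701). Exons of Jun, Junb and Jund likewise overlap an antisense gene each (Junos, Prdx2 and Gm11175).

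Fosb, a Fos protein of the immediate response (chr7:19302696-19310051, minus strand), was close to the floor. It was at or under 3 adjusted reads in 8 of 9 libraries, and only surface proteins replicate 2 held more, 8.77.

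Fos and Fosl2 are given beside them because they pair with the same Jun proteins. Fos, needed for osteoclast formation, lay at 8.16, 8.73 and 8.83 log2 with RANKL alone, 8.33, 8.53 and 7.96 with heat-killed MJ2, and 7.99, 7.55 and 8.05 with surface proteins. Its fold change with surface proteins, -0.71, did not pass (limma adjusted p = 0.0723). Fosl2, which encodes Fra-2, was the most abundant Fos gene, with 12.48, 12.64 and 12.47 log2 with RANKL alone, and fell by 2.24 with surface proteins (adjusted p = 0.00258) and by 1.11 with heat-killed MJ2 (adjusted p = 0.0114). Within a library, Fosl1 minus Fosl2 was -5.93 ± 0.338 log2 units with RANKL alone, -3.53 ± 0.286 with heat-killed MJ2 and -2.23 ± 0.554 with surface proteins (SD, n = 3), so Fosl1 was the rarer of the pair in every group.

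**Figure D3:**
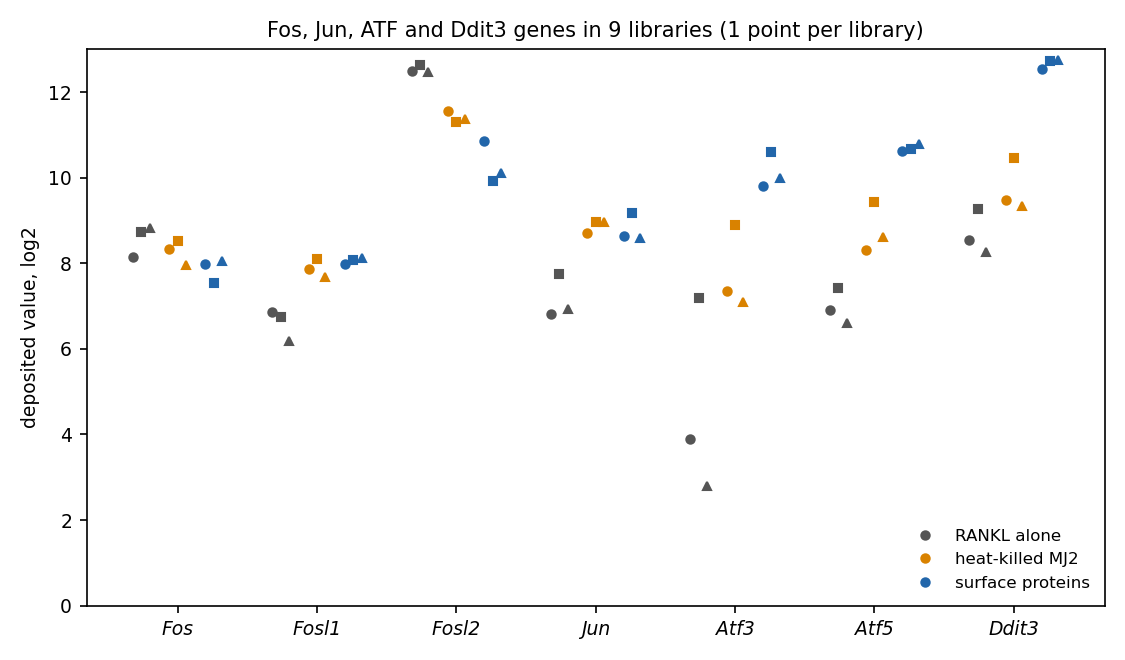
Deposited log2 value (y axis) of the members Fosl1, Jun and Atf3 beside 4 relatives in 9 libraries, 1 point each, coloured by group. Fosl2 steps down from RANKL alone to heat-killed MJ2 to surface proteins, whereas Atf5 and Ddit3 step up.

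Atf3, a stress-induced ATF protein that represses inflammatory genes (chr1:191170296-191218039, minus strand), was higher with surface proteins than in either other group. It held 13.96, 146 and 5.91 adjusted reads with RANKL alone, 162, 474 and 136 with heat-killed MJ2, and 899, 1539 and 1012 with surface proteins. All surface protein libraries lay above all others, while the highest RANKL alone library overlapped with the heat-killed MJ2 group. Replicate 2 was the highest library in each of the 3 groups. The log2 fold change was 5.50 (SE 1.08, limma adjusted p = 0.0133, 95% interval 2.90 to 8.10) against RANKL alone, a 45.3-fold rise. It was 6.78 without RANKL alone replicate 2 and 4.58 without RANKL alone replicate 3, and the call was lost without surface proteins replicate 2 (adjusted p = 0.0510). With heat-killed MJ2 it was 3.15 (SE 1.15, adjusted p = 0.176), which did not pass, and it was 4.43 without RANKL alone replicate 2 (adjusted p = 0.0355) and 2.23 without RANKL alone replicate 3 (adjusted p = 0.330). Surface proteins exceeded heat-killed MJ2 by 2.35 (SE 0.498, adjusted p = 0.0275), a call that was kept in 1 of 6 fits without a library, that without heat-killed MJ2 replicate 2, with adjusted p between 0.0511 and 0.0936 in the others, and lost with all 9 libraries in 1 fit (adjusted p = 0.137).

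Batf, which pairs with Jun proteins and works with interferon regulatory factors (chr12:85686669-85709087, plus strand), was, like Fosb, under the floor in every RANKL alone library. It held 0, 0.0725 and 0 adjusted reads with RANKL alone, 2.07, 4.80 and 6.85 with heat-killed MJ2, and 32.4, 45.4 and 12.1 with surface proteins. All surface protein libraries lay above the other 6, and heat-killed MJ2 replicate 1, like RANKL alone, was under the floor. Against RANKL alone, which was under the floor in every library, Batf with surface proteins was at least 9.98-fold higher. With heat-killed MJ2 its mean was 1.53 times the floor of 3 reads. As these libraries are themselves near the floor, that ratio is no lower bound. The fitted log2 fold change with surface proteins, 4.74, lay between 2.66 and 7.77 depending on the constant added before the log. Surface proteins exceeded heat-killed MJ2 by 2.39 log2 units (SE 0.552), by 2.01 to 2.92 when 1 library was left out, and by 1.76 with 5 added before the log in place of 1.

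The 3 EGR genes, all zinc-finger factors of the early response, differed in direction. Egr1 passed with surface proteins, against either other group. Its adjusted reads were 161, 230 and 137 with RANKL alone, 186, 238 and 160 with heat-killed MJ2, and 379, 479 and 448 with surface proteins. The surface protein libraries lay above the other 6, which overlapped. The log2 fold change was 1.33 (SE 0.227, limma adjusted p = 0.00857) against RANKL alone, kept when any 1 library was left out, and 1.17 (SE 0.194, adjusted p = 0.0161) against heat-killed MJ2, kept in 2 of 6 such fits (without heat-killed MJ2 replicate 2 and without surface proteins replicate 1), with adjusted p up to 0.066 in the others. Between heat-killed MJ2 and RANKL alone the difference was 0.16 (95% interval -0.44 to 0.76).

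Egr2, known in myeloid cells as a partner of Egr1 (chr10:67535475-67542188, plus strand), fell in both treated groups. It held 100.4, 152 and 161 adjusted reads with RANKL alone, 11.3, 35.8 and 24.5 with heat-killed MJ2, and 1.93, 20.1 and 23.2 with surface proteins. Both treated groups lay below RANKL alone and overlapped each other, and surface proteins replicate 1 was the lowest of the 9 libraries. Egr2 fell by 3.57 log2 units with surface proteins (SE 0.811, limma adjusted p = 0.0212), and the call was lost without each of the RANKL alone libraries in turn (adjusted p 0.0505 to 0.0648). Without surface proteins replicate 1, which was under the floor, Egr2 fell by 2.59 (SE 0.258, adjusted p = 0.00462). It fell by 2.59 with heat-killed MJ2 (SE 0.424, adjusted p = 0.0255), a call kept in 2 of 6 fits without a library, those without heat-killed MJ2 replicates 1 or 2, and with adjusted p from 0.0507 to 0.0785 in the others. That call was also lost with all 9 libraries in 1 fit (adjusted p = 0.0831). The fit of surface proteins against heat-killed MJ2 gave -0.98 (95% interval -3.10 to 1.14), and 0.00 without surface proteins replicate 1. Within a library, Egr1 minus Egr2 was 0.35 ± 0.501 log2 with RANKL alone, 3.10 ± 0.723 with heat-killed MJ2 and 5.25 ± 1.54 with surface proteins (SD, n = 3), or 4.36 without surface proteins replicate 1.

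Egr3, which NFAT induces in T cells (chr14:70077203-70082614, plus strand), passed in no comparison as fitted here, and in some alternative fits did. It held 38.4, 113 and 71.2 adjusted reads with RANKL alone, 9.25, 23.2 and 25.5 with heat-killed MJ2, and 28.4, 58.6 and 54.8 with surface proteins. All heat-killed MJ2 libraries lay below the other 6, but the log2 difference of -1.88 against RANKL alone (SE 0.509, limma adjusted p = 0.0915) and that of 1.30 for surface proteins against heat-killed MJ2 (adjusted p = 0.0942) did not pass. The first passed with a trended and robust prior in limma (adjusted p = 0.0132), and both with the replicate number as a block (0.0373 and 0.0281). The surface protein group overlapped with RANKL alone, with a difference of -0.58 (95% interval -1.68 to 0.52). Nab1 and Nab2, the corepressors that bind the EGR proteins, did not pass in any limma comparison (1 of the 2 had an unadjusted p under 0.05 in each), with log2 fold changes of 0.36 and -0.07 with surface proteins against RANKL alone.

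The order of levels changed with treatment. With RANKL alone Junb was highest, then Jund, and the genes Egr1, Jun, Egr2, Fosl1, Egr3 and Atf3 followed with overlapping neighbours, above Fosb and Batf. With heat-killed MJ2 Jun moved to the third place, below Jund without overlap but overlapping the lower-ranked Atf3, and Egr2, which had overlapped Egr1 with RANKL alone, lay below it without overlap. With surface proteins Atf3 was second and overlapped Junb, then came Jund, then Jun and Egr1 together, then Fosl1, and Egr3, Batf, Egr2 and Fosb overlapped as neighbours at the bottom.

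Further leucine zipper genes were taken from a fixed list. Here and in the lists that follow, genes that reached the filter through 1 group alone, like Batf, are left out of the counts and described by their values. The median of all genes tested keeps such genes. Of 17 other AP-1, ATF and Maf genes, 7 rose and 1 fell with surface proteins against RANKL alone, with a median log2 fold change of 0.92 beside -0.008 for all genes tested. Ddit3, the stress factor CHOP, rose by 3.98 (limma adjusted p = 0.000522) and Atf5, a related stress factor, by 3.72 (adjusted p = 0.000368). Maf was at or under the floor in all RANKL alone libraries and, with surface proteins, at least 14.3-fold higher. With heat-killed MJ2, 3 of 17 rose and 1 fell (median 0.18), with Crem higher by 1.87, Atf5 higher by 1.80 and Fosl2 lower. Between the treated groups 5 of 18 were higher with surface proteins, Ddit3 by 2.92 and Atf5 by 1.91 among them, and 2 lower (median 0.45). Maf, outside that count, was higher there by 3.78, and by 4.47 without heat-killed MJ2 replicate 1.

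Among 22 other immediate-early genes, 9 rose and 1 fell with surface proteins (median 1.17), and with heat-killed MJ2 3 rose and 0 fell in limma (2 lower at an unadjusted p under 0.05, median 0.25). Plk2, a polo-like kinase, rose by 4.52 and 4.65 with surface proteins and with heat-killed MJ2 respectively, and by 5.45 and 5.58 without RANKL alone replicate 2. Phlda1 rose by 3.09 and 3.41. Sgk1, a serum-induced kinase, rose by 2.87 with surface proteins, and by 3.53 without RANKL alone replicate 2, and Ier3 rose by 1.17 with heat-killed MJ2. Id1, an inhibitor of helix-loop-helix factors, was under the floor with RANKL alone, at least 5.6-fold higher with surface proteins and at least 29.1-fold higher with heat-killed MJ2, and from heat-killed MJ2 to surface proteins it fell by 2.24 on the log2 scale. Klf2 and Klf4, Krüppel-like zinc-finger factors, were higher with surface proteins than with heat-killed MJ2, by 1.82 and 1.67, and Sgk1 by 1.63. In that comparison 5 of 23 were higher and 1 was lower.

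Of 27 ternary complex factors and upstream kinases tested, 1 rose with surface proteins against RANKL alone, Map3k5 (1.73), a stress kinase, and 1 fell, Map2k3 (-1.44), a kinase of p38, with a median of 0.22. With heat-killed MJ2 0 of 27 passed in limma, and 2 had an unadjusted p under 0.05 (median 0.007). Between the treated groups 1 of 26 passed, Map3k5, which was higher by 1.01 with surface proteins. Srf, the factor of the CArG box, differed by -0.23 and -0.26 without passing.

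The last list held genes known as targets of AP-1 or EGR. With surface proteins 6 of 18 rose and 4 fell (median -0.19), and with heat-killed MJ2 6 of 20 rose and 1 fell (median 0.59). Cxcl2, a neutrophil-attracting chemokine, rose by 8.11 and 7.68 log2, and by 9.01 and 8.59 without RANKL alone replicate 2. Outside the counts, Ptgs2, the inducible cyclooxygenase, was, with surface proteins, at least 62.6-fold higher and, with heat-killed MJ2, at least 101-fold higher, since all RANKL alone libraries were under the floor. With heat-killed MJ2 the cytokine Il1b was at least 16.6-fold higher than with RANKL alone, or 10.8-fold without heat-killed MJ2 replicate 3, and the elastase Mmp12 at least 10.5-fold higher. F3, tissue factor, differed by -2.66 with surface proteins, and by -3.35 to -1.78 when 1 library of that group was left out. Acp5, an osteoclast phosphatase, fell by 2.66 and 1.11. Acp5, Mmp9, Ctsk and Itgb3 stand on both this and the osteoclast list, so the counts of these lists share genes and are not separate results. Between the treated groups 0 of 20 passed as higher with surface proteins in limma (2 at an unadjusted p under 0.05), and 6 were lower: the chemokine Ccl2 fell by 2.56, the integrin Itgb3 fell by 2.20 and the protease Plau fell by 2.19. Mmp12, outside that count, was at least 10.5-fold lower with surface proteins. S100a8, a calcium-binding protein on the neutrophil list, was at 1899, 2056 and 1906 adjusted reads with heat-killed MJ2, 198, 209 and 113 with surface proteins and at most 0.11 with RANKL alone, while 5 of the 7 listed neutrophil markers were at or under the floor in every group. Its part in these results was not tested. Of the osteoclast markers 7 of 9 fell with surface proteins and 3 of 9 with heat-killed MJ2, and of 9 macrophage markers 6 rose and 1 fell with surface proteins (Csf1r, the receptor of the macrophage growth factor, fell by 1.48, and is named after its value was seen), and 4 rose with heat-killed MJ2. Of 5 heat-shock genes 3 fell with surface proteins, and 1 of 3 dendritic cell markers, Itgax, fell. Of 9 reference genes 0 passed in limma in any comparison, with between 2 and 5 at an unadjusted p under 0.05.

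**Figure D4:**
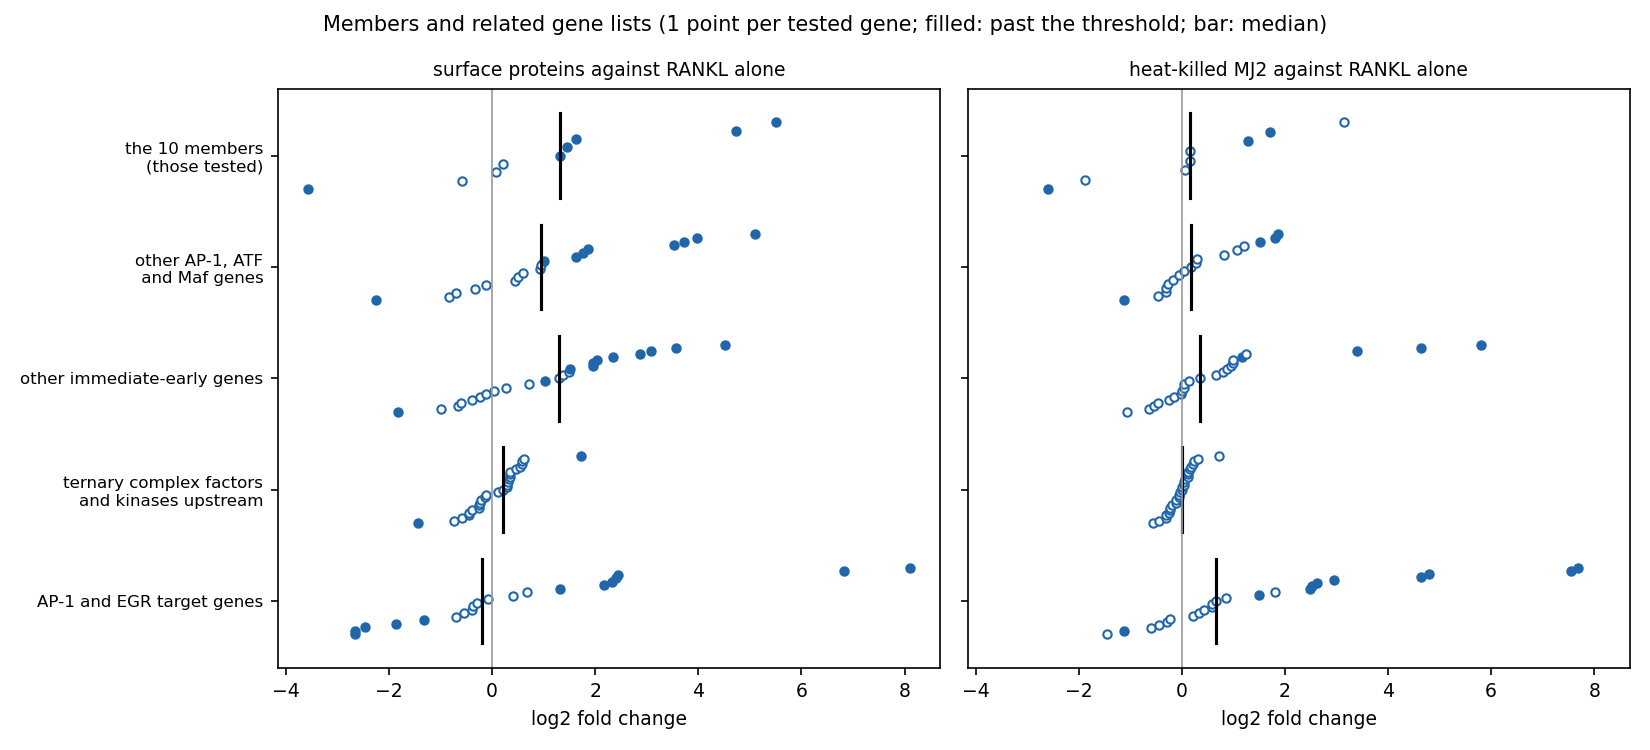
Log2 fold change against RANKL alone (x axis) of each tested gene in the 10 members and 4 related lists (y axis), for surface proteins and for heat-killed MJ2, filled where the gene passed, with the median as a bar. Genes under the floor with RANKL alone are plotted at their fitted value, which is no bound, and the bars include genes that reached the filter through 1 group alone. The median of the upstream factors and kinases is 0.22 with surface proteins, where Map3k5 and Map2k3 passed, and 0.007 with heat-killed MJ2. The panels do not hold the same genes, since the filter was applied to each comparison.

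By likeness over the 9 libraries, measured as the root-mean-square difference of log2 values after each gene was centred on its own mean, Jun was nearest to Lrp12 (0.12), a membrane receptor, and to Dusp6 (0.21), a phosphatase of ERK. Atf3 was nearest to Soat2 (0.42), Egr1 to Kdm4a (0.12), Fosl1 to Srxn1 (0.13), Batf to Ms4a6d (0.52), Egr2 to Lincpint (0.64) and Egr3 to Zfp738 (0.43). Junb and Jund, which hardly vary, were nearest to Cpsf6 (0.10) and Cpsf2 (0.08). These values describe the 9 libraries and carry no test.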

How the data were processed

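The libraries were made by the authors with a 3′ end kit and read as single 75-base reads, and for each library they deposited log2 values, log2(value + 1), of 23282 gene rows. Their methods name quantile normalization, but the sorted columns differ, so the scaling is not fully known. The submitters' processing notes name Bowtie2, bedtools and the build mm10. The 10 genes and all lists were chosen with earlier results of these data known. Genes that reached 10 adjusted reads in 3 or more of the 6 libraries compared were fitted in limma 3.58.1 (R 4.3.3; lmFit, eBayes), with Benjamini-Hochberg adjustment over all genes tested. Genes for which 1 of the compared groups never reached 10 reads were left out of list counts, but not of the shares and medians over all genes tested. The fit was tested on simulated data. Alternatives were other scalings, filters, constants and thresholds, all 9 libraries in 1 fit, a replicate block, a trended and robust prior and leaving out each library. List genes were named by rule: in each list and comparison at most the 4 largest log2 changes past the threshold, with Fos, Fosl2, Nab1, Nab2 and Srf always; 1 gene of the rule is not reported here. Promoters (250 bases before to 50 after each RefSeq start, GRCm38) were searched with Python 3.11.15, and matched 7 of the 10 genes. Fosl1 and Egr3 are named only, and Egr1 was not searched. The relaxed cyclic AMP motif was added after the first search. Protein sequences were not used here. No group of replicates was identical (chi-square per degree of freedom 6.9 to 18.48 within groups).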

Additional observations from a re-analysis of the deposited data

How the results depend on the processing

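With quantile normalization, equal totals or the constants 0.1 and 5, every call against RANKL alone was kept among the genes counted (Batf is left out here too), and the log2 differences of Junb (-0.037) and Jund (-0.056) between the treated groups reversed with equal totals. The lowest median log2 fold change of all genes tested under another scaling was -0.068. It belonged to surface proteins against RANKL alone with quantile normalization, beside -0.008 in the main fit. Between the treated groups the median went from 0.031 in the main fit to -0.051 with equal totals. Surface proteins against RANKL alone gave 3163 genes with no limit on the fold change (1902 in the report), and 3 members with the filter in every library, since Atf3 and Egr2 were then not tested. Egr2 was lost there with no filter (limma adjusted p = 0.0557). Heat-killed MJ2 against RANKL alone gave 267 genes and 0 members with no filter, 799 genes and 5 members at an unadjusted p, and 289 genes with the replicate block. Surface proteins against heat-killed MJ2 gave 1949 genes with no limit on the fold change, and 1 member with no filter or with all 9 libraries in 1 fit. Leaving out each library in turn gave 189 to 334 genes and 0 to 2 members for heat-killed MJ2 against RANKL alone, and 342 to 1167 genes and 0 to 2 members between the treated groups. It also turned the sign of log2 differences near 0: Jund from -0.043 to 0.14 and Egr1 from -0.002 to 0.366 for heat-killed MJ2 against RANKL alone, and Jun from -0.255 to 0.035, Junb from -0.109 to 0.14 and Jund from -0.03 to 0.124 between the treated groups. With all 9 libraries in 1 fit, Egr2 was lost for heat-killed MJ2 against RANKL alone and Atf3 between the treated groups (limma adjusted p = 0.0831 and 0.137), and with a trended and robust prior Egr3 passed for heat-killed MJ2 against RANKL alone (0.0132). The cause was not tested. Of 402 values of single genes under alternatives, 350 kept direction and side of the threshold, 35 lost the call, 7 gained it and 10 reversed. With the replicate block, Egr3 passed against RANKL alone with heat-killed MJ2 (adjusted p = 0.0373) and between the treated groups (0.0281). The numbers were not taken as pairs, since same-numbered libraries deviated together with correlations of 0.026 to 0.128 only, and each library correlated best with its own number in 2 of 3 comparisons.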

Other observations

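Replicate 2 was the highest library of its group in all 3 groups for Atf3, Egr1 and Junb, which is 3 of the 9 genes that pass the filter over 9 libraries. Among all 11193 genes that pass it, 6.75% had replicate 2 highest in all 3 groups, 5.45% had replicate 1 and 4.10% had replicate 3. This pattern was noticed after the values were seen and carries no test.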
